A study of Mus musculus with 20 samples.

Results

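The core circadian clock was represented by 10 genes, Bmal1, Clock, Npas2, Per1, Per2, Per3, Cry1, Nr1d1, Dbp and Ciart, chosen by name from the 57010 genes of the count table. All 10 reached 10 counts in 50% or more of the livers and of the kidneys and were tested in both tissues. RNA was taken from the liver and the kidney of male mice of the genetically heterogeneous UM-HET3 stock, which were 12 months old when an osmotic minipump was implanted under the skin. In 6 mice the pump delivered 7c, a partial chemical reprogramming cocktail, for 28 days: repsox, tranylcypromine, DZNep, CHIR99021, forskolin and TTNPB at 0.1 mg/kg/day each, with valproate at 1 mg/kg/day. In the 4 control mice the pump delivered the vehicle alone, 50% DMSO and 50% PEG300. Both groups thus carried a pump and received its solvent, and the study asked whether 7c changed transcriptomic markers of biological age. The mice lived in cycles of equal light and dark periods, and the hour at which each was killed is not given in the sources used here.

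The clock is a loop of transcription and repression that runs in nearly every mammalian cell. BMAL1 pairs with CLOCK, or with its relative NPAS2, on E-box sequences and switches on the Period and Cryptochrome genes, Nr1d1, Dbp and Ciart. The PERIOD and CRYPTOCHROME proteins then block that pair, REV-ERB alpha, the product of Nr1d1, represses Bmal1, and Dbp encodes an activator that binds D-box sequences. As a result the transcripts of these genes rise and fall over each day, with Bmal1 and Dbp near opposite phases, and in liver and kidney the loop paces genes of metabolism and of salt and water handling.

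The elements through which the loop is wired were searched in the 250 bases before the canonical start of each gene, on GRCm39 and on both strands, and are shown because they tell the members apart. The E-box CACGTG lay in 3 of the 10 windows, those of Per1, Cry1 and Ciart, and in 6.28% of the windows of 21664 protein-coding genes. The variant CACGTT was found before Cry1 and Nr1d1 and in 4.16% of all windows, and it reads AACGTG on the strand of these genes. The D-box TTATGTAA stood before Per2 and at a pair of places before Per3 and in 0.84% of all windows, and the element TAGGTCA, bound by REV-ERB proteins, stood before Dbp and in 2.17%. None of these letters was found in the windows of Bmal1, Clock and Npas2. Only these exact letters before the canonical start were searched, so that other spellings and elements elsewhere at a gene were not seen. Each site is printed on the strand of its gene with the motif in capitals:
Per1, E-box, chr11:68989236-68989261, plus strand, within an intron of a longer Per1 transcript: cccttaacgaCACGTGggccctcaat
Cry1, E-box, chr10:85020963-85020988, minus strand, within an exon of a longer Cry1 transcript: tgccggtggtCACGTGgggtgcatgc
Cry1, E-box variant, chr10:85020982-85021007, minus strand, in the same exon: acacttcagaAACGTGaggtgccggt
Ciart, E-box farthest from the start, chr3:95789641-95789666, minus strand, within an exon of a longer Ciart transcript: catctagagtCACGTGttgccggtaa
Ciart, middle E-box, chr3:95789583-95789608, minus strand, within an intron of a longer Ciart transcript: cagggggaggCACGTGcagaaccgca
Ciart, E-box nearest the start, chr3:95789569-95789594, minus strand, in the same intron: tgcagaaccgCACGTGtctgggaggg
Nr1d1, E-box variant, chr11:98666216-98666241, minus strand, overlapping an exon of the antisense gene Gm31862: cacagatctcAACGTGccggctgctg
Per2, D-box, chr1:91387154-91387181, minus strand, within the antisense gene Gm70796: catgtgcgtcTTATGTAAagagagcgac
Per3, D-box farther from the start, chr4:151129310-151129337, minus strand, overlapping an exon of Gm69444: gacccgcgcgTTATGTAAggtactcggg
Per3, D-box nearer the start, chr4:151129263-151129290, minus strand, outside annotated transcripts: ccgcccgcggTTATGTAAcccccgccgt
Dbp, REV-ERB element, chr7:45354313-45354339, plus strand, overlapping an exon of Car11: tggccaaataTAGGTCAgtgtcccgcc

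Total counts were 28383359 to 30571119 in 7c livers, 31670440 to 34153084 in vehicle livers, 33003173 to 64872451 in 7c kidneys and 27855849 to 39651123 in vehicle kidneys. Hepatocyte transcripts marked the livers and tubule transcripts the kidneys, with the loop of Henle gene Umod at 0 counts in every liver. The liver of 7c replicate 6 stood apart, since 6 of 6 skeletal muscle markers were detected there, with a sum of 630 CPM (counts relative to the library total), against sums of 0.328 to 1.79 CPM in the other 9 livers, in which Ckm, Myh4 and Pvalb were at or near 0. In kidney the 6 adipocyte markers summed to 57.3 to 149 CPM with 7c and to 37.1 to 49.5 CPM with vehicle, so that these ranges did not overlap, and no adipocyte marker was at 0 in a 7c kidney. The part of fat RNA in the kidney results was not tested, and the liver fold changes of the members between 7c and vehicle that 7c replicate 6 moved by over 1.5 times are also given without it. In whole tissue, fewer cells of a type and less RNA per cell cannot be told apart.

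The first question was whether 7c shifted the clock genes relative to vehicle. None of the 10 passed an adjusted p of 0.05 in liver or in kidney, where 0.00666% and 0% of all tested genes did (edgeR's quasi-likelihood test with Benjamini-Hochberg adjustment). Most members nonetheless ranged more widely within the 7c group than within the vehicle group. In both tissues 7c replicates 4 to 6 lay below every vehicle sample in Bmal1, Npas2 and Cry1 and above every one in Dbp. For Cry1 in kidney the nearest 7c and vehicle values were 1.68 and 1.71 CPM. These replicates were singled out after the values had been seen, and the share of all genes with such a pattern was not computed. The levels below are CPM scaled by the trimmed mean of M-values (TMM) within each tissue, in order of the replicate numbers.

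**Figure D1:**
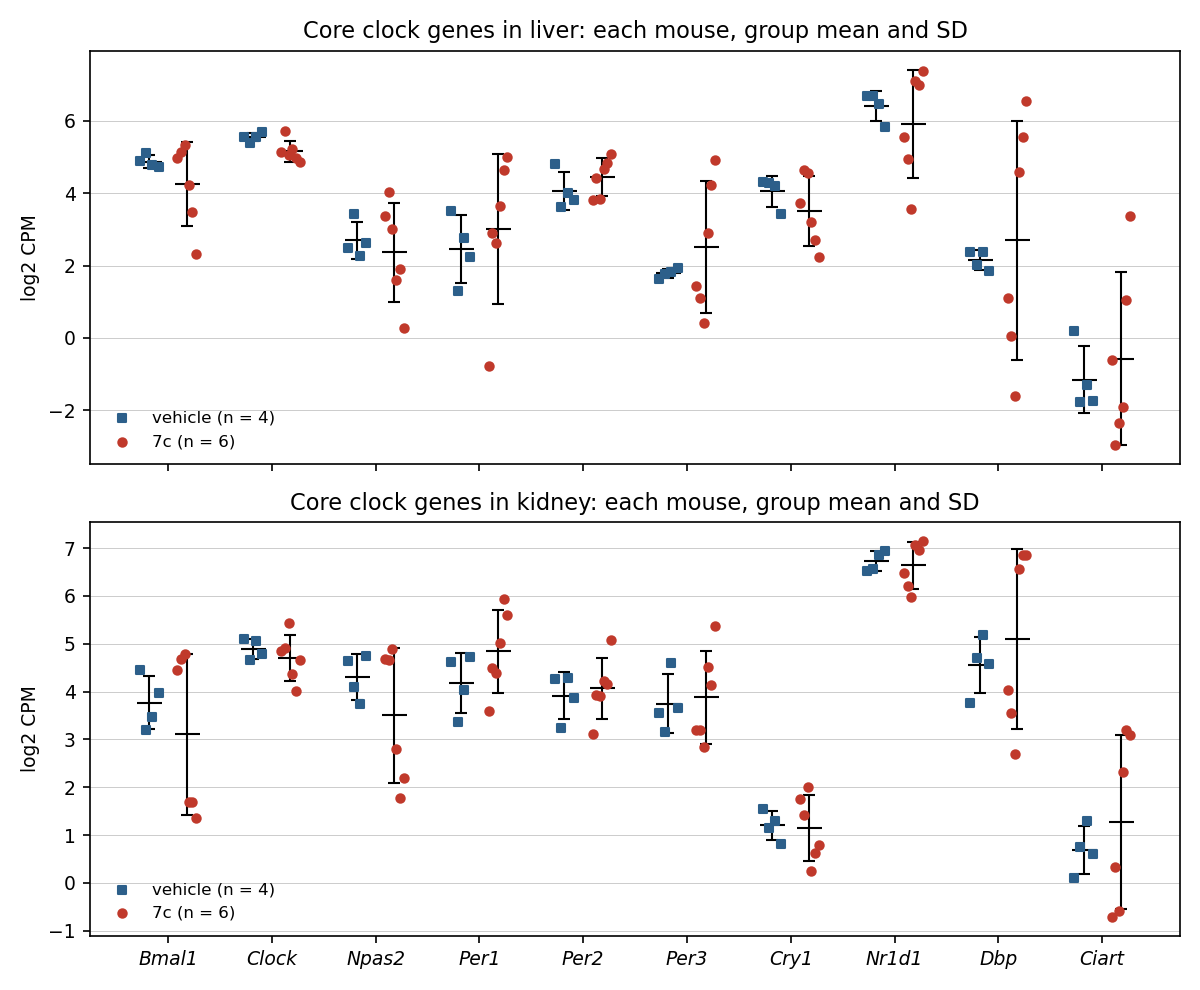
Level of each of the 10 clock genes in liver (top) and kidney (bottom), in log2 CPM with a prior count of 2, where each point is 1 mouse (red circles 7c, n = 6; blue squares vehicle, n = 4) and the black bars give the group mean and SD. Within each gene the points run from replicate 1 on the left to the last replicate on the right, and the 7c points span a wider range than the vehicle points at both ends in 9 of 10 genes in each tissue.

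Bmal1 (chr7:112806152-112914735, plus strand) encodes the obligate partner of the activating pair. In liver it read 31.4, 35.3, 40.0, 18.5, 11.2 and 4.95 CPM in 7c replicates 1 to 6 and 29.4, 34.5, 27.2 and 26.2 CPM in vehicle replicates 1 to 4. In kidney the 7c values were 21.7, 25.7, 27.6, 3.16, 3.16 and 2.52 CPM and the vehicle values 21.8, 9.11, 11 and 15.6 CPM. In both tissues 7c replicates 4 to 6 lay below every vehicle sample, and 7c replicates 2 and 3 lay above every one, so that the groups overlapped. The log2 fold changes were -0.32 (SE 0.417) in liver, or -0.10 (SE 0.288) without 7c replicate 6, and -0.04 (SE 0.663) in kidney.

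Npas2 (chr1:39232705-39402323, plus strand), which can replace Clock, followed the same order. Its liver values were 10.2, 16.2, 8.04, 2.95, 3.68 and 1.16 CPM with 7c and 5.47, 10.7, 4.72 and 6.11 CPM with vehicle, and its log2 fold change was 0.06 (SE 0.540), or 0.28 without 7c replicate 6. In kidney it read 25.7, 25.1, 29.7, 6.94, 3.38 and 4.52 CPM with 7c and 24.8, 17.1, 13.2 and 26.9 CPM with vehicle, with a log2 fold change of -0.37 (SE 0.554). Replicates 4 to 6 of the 7c group were again the lowest of the 10 mice in each tissue.

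Clock (chr5:76342860-76452846, minus strand), the other member of the activating pair, varied little. It ranged from 29.1 to 52 CPM in 7c livers and from 41.8 to 51.3 CPM in vehicle livers, and from 16.1 to 42.9 CPM in 7c kidneys and 25.2 to 34.0 CPM in vehicle kidneys. Its log2 fold change in liver was -0.37 (SE 0.145), with an unadjusted p of 0.0248 and an adjusted p of 1.0 in edgeR's quasi-likelihood test, and 5 of the 6 7c livers lay below every vehicle liver.

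Among the repressors, Per3 (chr4:151081373-151129140, minus strand) showed the pattern most clearly in liver. It read 2.62, 2.09, 1.26, 7.45, 18.7 and 30.3 CPM with 7c against 3.03, 3.32, 3.44 and 3.71 CPM with vehicle, so that 3 of the 6 7c livers lay above and 3 below all vehicle livers. The log2 fold change was 1.62 (SE 0.751) with an unadjusted p of 0.0498, and it was 0.31 (SE 0.467) in kidney, where 7c kidneys ranged from 7.11 to 41.2 CPM and vehicle kidneys from 8.91 to 24.3 CPM. Without 7c replicate 6 the liver value was 0.93 (SE 0.634). Per3 was thus high in the livers in which Bmal1 was low.

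Per1 (chr11:68986035-69002300, plus strand), a repressor that also responds quickly to hormones and cAMP, ranged from 0.524 CPM in 7c replicate 1 to 31.6 CPM in 7c replicate 6 in liver, and from 2.41 to 11.3 CPM in vehicle livers. Its kidney values were 11.9 to 61.3 CPM with 7c and 10.2 to 26.3 CPM with vehicle. The log2 fold changes were 1.14 (SE 0.731) in liver, 0.71 without 7c replicate 6, and 0.77 (SE 0.413) in kidney.

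Per2 (chr1:91343700-91387069, minus strand), the period gene on which the loop most depends, differed least among the 3. It ranged from 13.9 to 33.4 CPM in 7c livers and 12.2 to 27.7 CPM in vehicle livers, and from 8.66 to 33.9 CPM and 9.33 to 19.4 CPM in the kidneys. Its log2 fold changes were 0.38 (SE 0.277) in liver, or 0.24 without 7c replicate 6, and 0.22 (SE 0.318) in kidney, and neither passed the test.

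Cry1 (chr10:84967560-85021252, minus strand), the cryptochrome that acts latest in the cycle, went with Bmal1 and not with the period genes. In liver it read 13.1, 24.6, 23.4, 9.21, 6.39 and 4.62 CPM with 7c and 19.6, 19.2, 18.4 and 10.6 CPM with vehicle. The kidney values were lower, 3.30, 2.64, 3.95, 1.14, 1.5 and 1.68 CPM with 7c and 2.88, 2.17, 2.41 and 1.71 CPM with vehicle. In both tissues 7c replicates 4 to 6 lay below every vehicle sample, with log2 fold changes of -0.32 (SE 0.402) and 0.05 (SE 0.345) for the whole groups. The liver value was -0.14 without 7c replicate 6.

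Ciart (chr3:95785815-95789991, minus strand) encodes a small protein that represses the activating pair. It was scarce in liver, where 7c replicates gave 0.590, 0.0643, 0.133, 0.203, 1.99 and 10.2 CPM, counts of 2 to 283, and vehicle replicates 1.09, 0.229, 0.341 and 0.234 CPM, counts of 8 to 33. The liver log2 fold change was 2.22 (SE 1.21) and could not be fitted without 7c replicate 6, for want of counts, and only 7c replicates 5 and 6 lay above every vehicle liver. In kidney Ciart read 0.560, 1.2, 0.615, 4.95, 9.14 and 8.53 CPM with 7c and 1.02, 1.64, 2.41 and 1.47 CPM with vehicle, so that 7c replicates 4 to 6 lay above every vehicle kidney (log2 fold change 1.34, SE 0.763).

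Nr1d1 (chr11:98658752-98666188, minus strand), the repressor of Bmal1, was an abundant member. In liver it read 46.7, 30.4, 11.7, 136, 125 and 164 CPM with 7c and 102, 102, 87.1 and 56.1 CPM with vehicle, so that the 7c livers lay on both sides of all vehicle livers. The kidney values spanned less, 63.2 to 142 CPM with 7c and 92.2 to 123 CPM with vehicle. The log2 fold changes were near 0 in both tissues, -0.02 (SE 0.542) and -0.03 (SE 0.222), and the liver value was -0.31 without 7c replicate 6.

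Dbp (chr7:45354512-45359627, plus strand), the D-box activator and a direct output of the loop, varied most. In liver it read 2.06, 0.965, 0.266, 23.9, 46.4 and 93.1 CPM with 7c and 5.14, 3.95, 5.09 and 3.54 CPM with vehicle. The highest 7c liver thus held 2579 counts and the lowest 8 counts, while the vehicle livers held 121 to 179. In kidney the 7c values were 16.3, 11.7, 6.44, 93.8, 116 and 116 CPM and the vehicle values 13.6, 26.0, 36.5 and 23.8 CPM. The log2 fold change was 2.65 (SE 1.16, unadjusted p = 0.0395 in edgeR's quasi-likelihood test) in liver and 1.27 (SE 0.745, unadjusted p = 0.114) in kidney, and neither passed the adjusted threshold. Without 7c replicate 6 the liver value was 1.73 (SE 1.04).

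**Figure D2:**
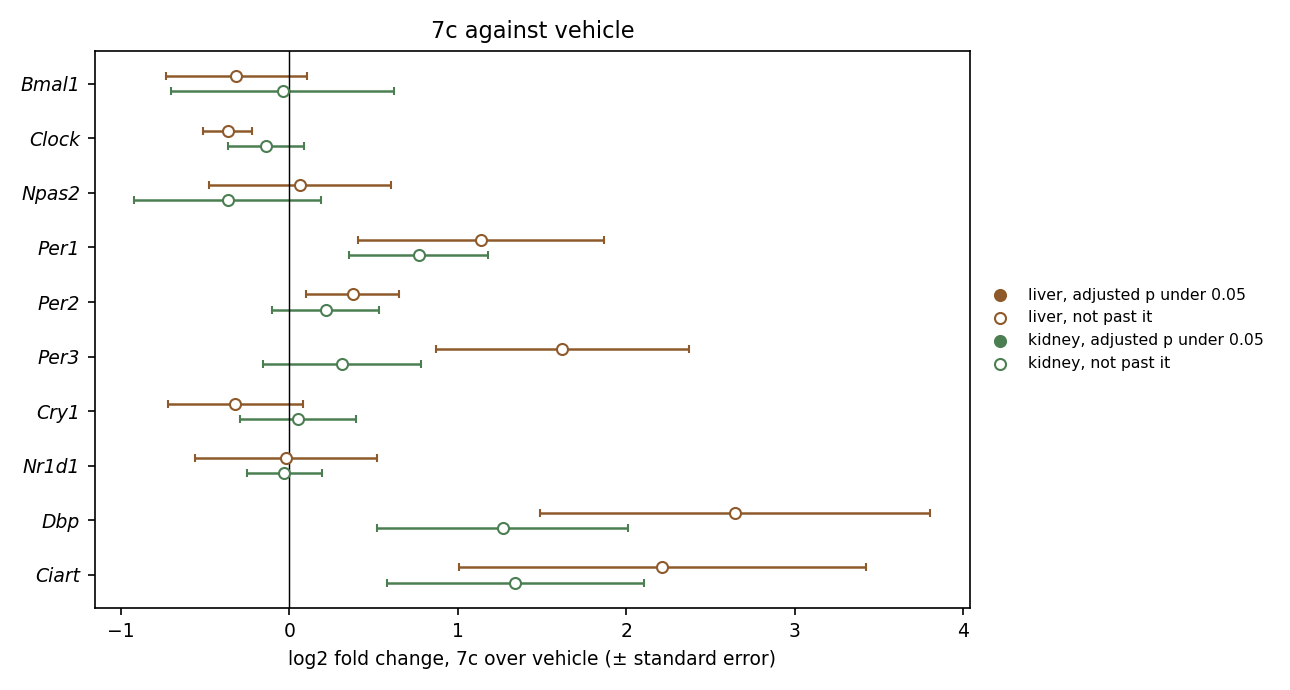
Log2 fold change of 7c over vehicle for each clock gene (horizontal axis, bars are standard errors) in liver (brown) and kidney (green), where an open circle marks an adjusted p above 0.05. All circles are open, and Dbp and Ciart in liver had the largest fold changes and the widest bars, 2.65 (SE 1.16) and 2.22 (SE 1.21).

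At an unadjusted p under 0.05, 3 of 10 members (Clock, Dbp and Per3) were reached in liver, against 3.76% of all tested genes. Without 7c replicate 6 their liver log2 fold changes were -0.31 (SE 0.146) for Clock, 1.73 (SE 1.04) for Dbp and 0.93 (SE 0.634) for Per3. In kidney 0 of 10 were reached, against 2.61%. Over the 10 members 6 log2 fold changes were positive in each tissue, and their median was 0.22 in liver and 0.13 in kidney, beside 0.00 and -0.01 over all genes. DESeq2, limma-voom and edgeR's likelihood ratio test also called 0 members in either tissue. The 7c effect was next compared between the tissues. No member differed, with an interaction of 1.37 (SE 1.42) for Dbp, or 0.74 without 7c replicate 6, and 1.30 (SE 0.940) for Per3, and 0.00706% of 14163 genes passed this test.

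The spread of the members was then compared with that of all genes. In liver the 7c range exceeded the vehicle range at both ends for 9 of 10 members, all but Per2, and for 31.2% of all tested genes. In kidney it did so for 9 of 10, all but Per1, and for 27.2%. These shares compare 6 mice with 4, and the larger group has the wider range more often for any gene. The SD of log2 CPM was larger in the 7c group for 10 of 10 members in each tissue, though nearly equal for Per2 in liver (0.522 and 0.516), and for 50.6% of all genes in liver and 44.4% in kidney. With 7c replicate 6 left out, 9 of 10 members had the larger SD with 7c in liver, all but Per2, beside 49.9% of all genes, and the 7c range exceeded the vehicle range for the same 9, beside 26.9%. For Dbp in liver the SD was 3.30 over the 6 7c mice, 3.03 without replicate 6 and 0.265 with vehicle, against medians over all genes of 0.290 with 7c and 0.281 with vehicle. For Per3 in liver these SDs were 1.82, 1.54 and 0.119, and for Bmal1 in kidney they were 1.69 and 0.552. Ranked by their SD over all 10 mice, Dbp stood at place 26, Ciart at 75, Per1 at 141 and Per3 at 350 of 15012 genes in liver, and Dbp at 263, Ciart at 302 and Bmal1 at 376 of 17749 genes in kidney. Clock, at 7410 and 7609, and Nr1d1 in kidney, at 7823, lay near the middle, and Per2 stood at 4234 in liver and 4452 in kidney and Cry1 at 4684 in kidney. No member separated the groups without overlap, which 0.719% of all tested genes did in liver and 0.716% in kidney. The 7c mice held the first and the last library numbers, as set out below. A wider 7c spread and a change along that number therefore cannot be told apart. The members also varied together, so their counts are not counts of independent genes.

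The levels were next set against the library number that the labels carry, an association looked for after the values had been seen. The number ran from 1 to 10 in each tissue, with the kidney series counted here from 1. It held 7c replicates 1 to 3 at numbers 1 to 3, the vehicle mice at 4 to 7 and 7c replicates 4 to 6 at 8 to 10, so that each run of numbers held a single group. What the number marks is not given in the sources used here. With treatment in the model, Per3 (0.41 per step on the log2 scale, SE 0.0567, adjusted p = 0.0163 in edgeR's quasi-likelihood test) and Dbp (0.67, SE 0.102, adjusted p = 0.0294) rose with the number in liver, where 0.0866% of all genes were called. Without 7c replicate 6 these slopes were 0.35 (adjusted p = 0.167 in edgeR's quasi-likelihood test) and 0.61 (adjusted p = 0.216), and 0 members were called, as was also so without 7c replicate 2 or 5. In kidney no member passed, nor did any other gene (0%), and the smallest adjusted p of a member was 0.0865, for Ciart at 0.44 per step (SE 0.0551). At an unadjusted p under 0.05, 9 of 10 members were reached in liver (6.14% of all genes) and 10 of 10 in kidney (2.81%).

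**Figure D3:**
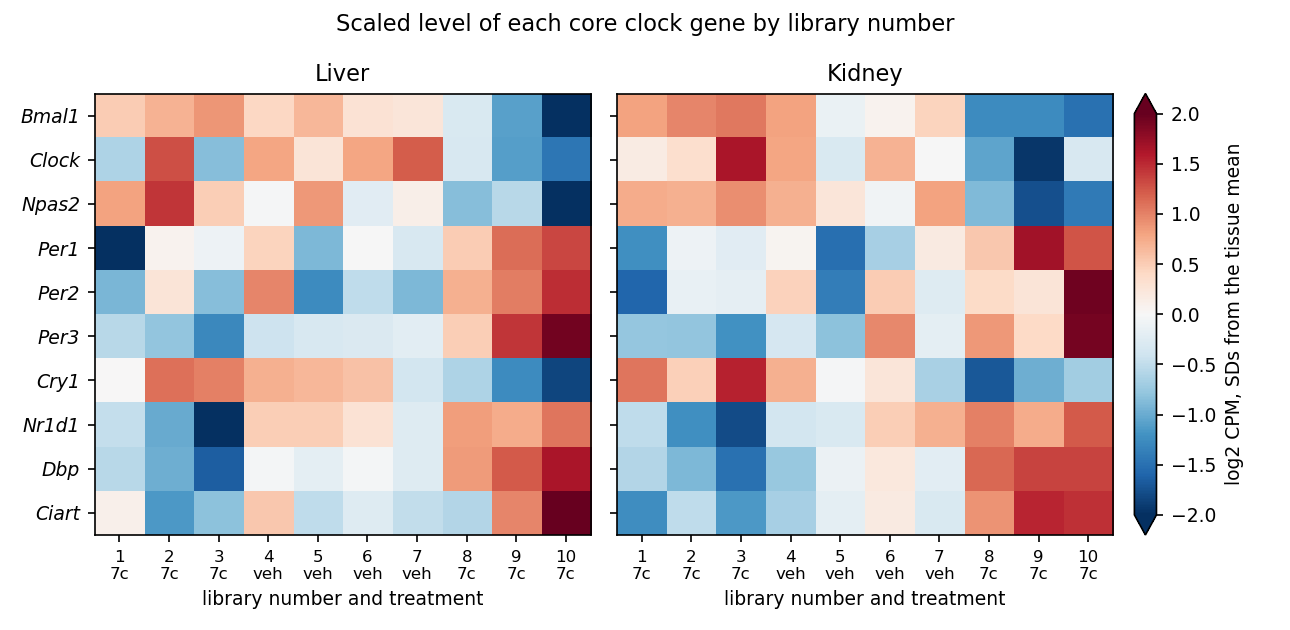
Level of each clock gene (rows) in each library (columns, ordered by library number, with the treatment below it) in liver (left) and kidney (right), as SDs of log2 CPM from the mean of that gene over the 10 mice (red higher, blue lower). Bmal1, Npas2 and Cry1 are blue at numbers 8 to 10, and Per3, Nr1d1 and Dbp are blue at 1 to 3 and red at 8 to 10, as is Ciart in kidney but not in liver.

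Whether the members varied together between mice was examined by the change of each gene per doubling of Bmal1 in the same tissue, with treatment in the model. Bmal1 itself fell with the library number (Pearson's r of -0.825 in liver and -0.896 in kidney, as descriptions). Slopes on Bmal1 and on that number therefore cannot be told apart. In liver 5 of 9 members were called, Npas2 and Cry1 rising and Per3, Dbp and Ciart falling with Bmal1. Of 15011 genes 0.293% were called, 0.127% rising and 0.167% falling. In kidney 3 of 9 were called, Npas2 rising and Dbp and Ciart falling. Of 17748 genes 0.0394% were called, 0.0282% rising and 0.0113% falling. At an unadjusted p under 0.05 the members numbered 8 of 9 in each tissue, against 7.15% and 6.25% of all genes. In both tissues the slopes of Clock, Npas2 and Cry1 were positive and those of the period genes, Nr1d1, Dbp and Ciart negative, while 51.9% of all genes in liver and 48.5% in kidney had a positive slope.

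Dbp had the steepest slope of the members in liver, and in kidney those of Dbp and Ciart lay within their standard errors of each other. Dbp fell by 2.47 on the log2 scale per doubling of Bmal1 in liver (SE 0.365, adjusted p = 0.0161 in edgeR's quasi-likelihood test) and by 1.07 in kidney (SE 0.0870, adjusted p = 0.000808). Per3 fell by 1.52 in liver (SE 0.143, adjusted p = 0.00155), and its kidney slope was -0.54 (SE 0.111, adjusted p = 0.321). The activator Npas2 rose by 1.15 in liver (SE 0.188, adjusted p = 0.0267) and by 0.78 in kidney (SE 0.0826, adjusted p = 0.00595). Ciart fell by 1.95 in liver (SE 0.329, adjusted p = 0.0300) and by 1.04 in kidney (SE 0.125, adjusted p = 0.0109). Cry1 rose by 0.82 in liver (SE 0.120, adjusted p = 0.0159 in edgeR's quasi-likelihood test) and had a slope of 0.37 in kidney (SE 0.0943, adjusted p = 0.511). The kidney slope of Per3 was called in 3 of 15 alternatives and that of Cry1 in 1.

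The remaining slopes did not pass in the main fit. Of 15 alternatives, Nr1d1 passed in 2 in liver and in 1 in kidney, and Per1 in 1 in liver. Nr1d1 had slopes of -0.98 (SE 0.246) in liver and -0.26 (SE 0.0517) in kidney, Per1 of -1.03 (SE 0.313) and -0.35 (SE 0.134), Per2 of -0.38 (SE 0.127) and -0.23 (SE 0.109), and Clock of 0.16 (SE 0.0799) and 0.23 (SE 0.0644). The difference of slopes between liver and kidney was not tested.

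**Figure D4:**
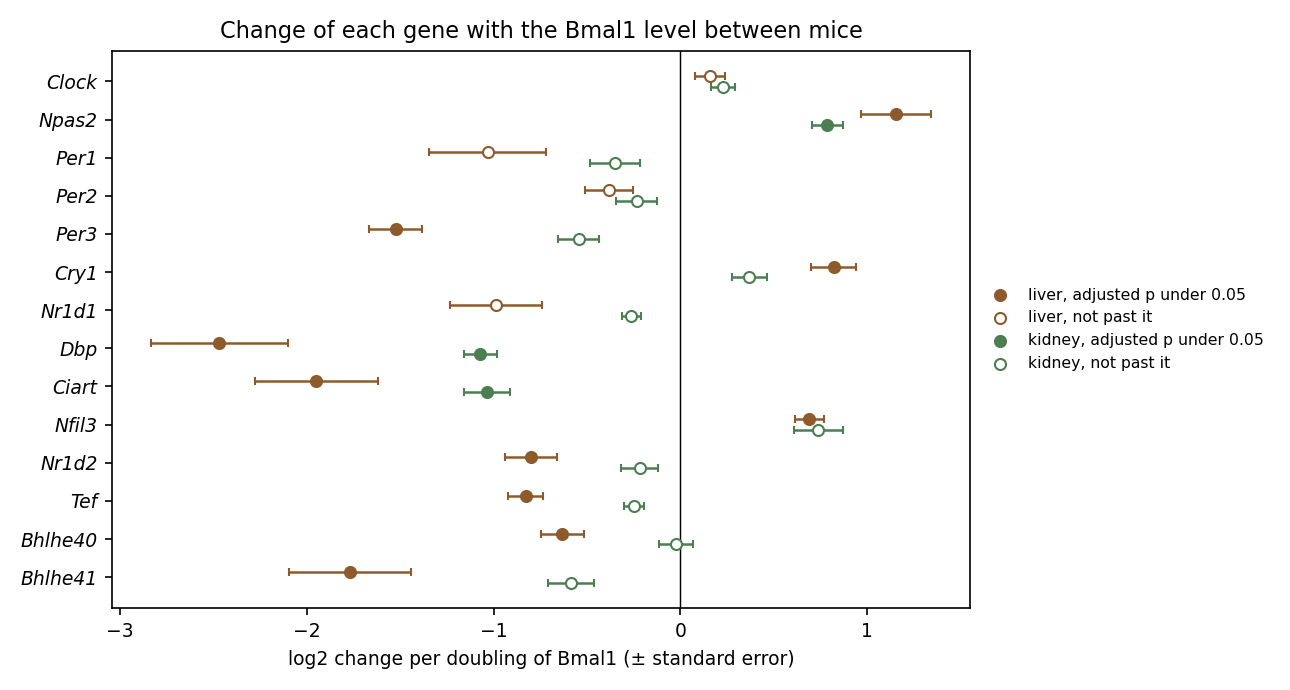
Log2 change of each clock gene per doubling of Bmal1 between mice (horizontal axis, bars are standard errors) in liver (brown) and kidney (green), for the 9 other members and 5 further clock genes, where filled circles have an adjusted p under 0.05. Dbp lies farthest to the left in liver, at -2.47, Dbp and Ciart lie close together in kidney, at -1.07 and -1.04, and Npas2, Cry1 and Nfil3 lie to the right of 0.

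The calls on these slopes depended on the 7c mice. Without library numbers 8 to 10, that is, with 7 mice, 0 members were called in either tissue, and in liver Ciart was too scarce to be tested. The liver slopes were then -2.73 (SE 1.66) for Dbp, -1.28 (SE 1.07) for Per3, 1.43 (SE 1.04) for Npas2 and 1.77 (SE 0.782) for Cry1. In kidney they were -1.09 (SE 0.374) for Dbp, -0.65 (SE 0.585) for Ciart and 0.64 (SE 0.248) for Npas2. All 7 kept their direction, with wider errors than over 10 mice. Leaving out the muscle-rich liver of 7c replicate 6, which had the least Bmal1, left 2 members called in liver, Per3 at -1.95 and Dbp at -3.62, with Npas2 at 1.17 and Cry1 at 1.07. In the 7c group, removal of replicate 2 left 1 member called in liver, removal of replicate 1 left 2 and removal of replicate 3 left 3. Without replicate 2 the slopes not called were 1.01 for Npas2, 0.75 for Cry1, -2.24 for Dbp and -1.82 for Ciart. In kidney 2 members stayed called after removal of 7c replicate 3, and 3 or 4 after removal of any other mouse. Muscle markers had a Pearson correlation of -0.81 with Bmal1 over the 10 livers, and hepatocyte and blood markers -0.72 and -0.69, given as descriptions. Without 7c replicate 6 these were 0.11, -0.49 and -0.69 over 9 livers, so that the first rested on that library.

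The same relation was read from correlations over the samples, of which 18 were computed over 10 samples and 18 more over the 7 with library numbers 1 to 7. In liver Bmal1 and Per3 had a Pearson's r of -0.966 (permutation p = 1e-05, the smallest that 100000 permutations can give) and a Spearman's rho of -0.964 (permutation p = 2e-05), and r was -0.933 without the 2 livers farthest from the median of Bmal1. Bmal1 and Dbp had an r of -0.896 (permutation p = 4e-05) and a rho of -0.891 (permutation p = 0.0011), with r of -0.898 without the 2 farthest. For Ciart the r of -0.868 (permutation p = 0.00447) became -0.19 and for Clock the r of 0.615 (permutation p = 0.0482) became -0.0683, so that both rested on those 2 livers. Over the 7 livers with numbers 1 to 7 the sign held in 8 of 9 relations, and Clock turned to -0.567. Per3 had an r of -0.853 (exact permutation p = 0.00833, n = 7) and Dbp of -0.820 (exact permutation p = 0.0190, n = 7). These became -0.600 and -0.700 without the 2 farthest. Per1 and Per2 had an r of -0.0512 and -0.131 over the 7 livers. The kidneys fell into separate sets by Bmal1, 3 at 2.52 to 3.16 CPM and 7 at 9.11 to 27.6 CPM, and the relation was read within the 7. There Bmal1 and Dbp had an r of -0.882 (exact permutation p = 0.00694, n = 7) and a rho of -0.964 (exact permutation p = 0.00278, n = 7), with r of -0.916 without the 2 farthest. For Npas2 the r of 0.834 (exact permutation p = 0.0290, n = 7) became 0.207 without the 2 farthest and rested on them. Per3 had an r of -0.530 (exact permutation p = 0.224, n = 7), and Per1 and Per2 had positive values, 0.535 and 0.162. These p-values are two-sided and unadjusted, and the permutations took no account of treatment.

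Other genes of the clock circuit, from a list of 18, did not differ between 7c and vehicle. In liver 0 of 17 tested passed, Fbxw11 and Rora, a degradation factor and an activator of Bmal1, having the smallest unadjusted p (0.0343 and 0.0462). In kidney 0 of 18 passed, with Bmal2 and Timeless at unadjusted p of 0.105 and 0.203. With the level of Bmal1 in liver, 5 of 17 were called, beside 0.293% of all genes. Of the 5, 1 rose and 4 fell, beside 0.127% and 0.167% of all genes. Nfil3, a repressor that competes with DBP for D-boxes, rose by 0.69 per doubling of Bmal1 (SE 0.0762, adjusted p = 0.00303 in edgeR's quasi-likelihood test), while Tef, a D-box activator like Dbp, fell by 0.83 (SE 0.0932, adjusted p = 0.00303). The slope of Tef turned to 0.47 (SE 0.391) without library numbers 8 to 10. Nr1d2, the relative of Nr1d1, fell by 0.80 (adjusted p = 0.0420 in edgeR's quasi-likelihood test), and the E-box repressors Bhlhe40 and Bhlhe41 fell by 0.63 and 1.77 (adjusted p = 0.0475 for each). The calls of the last 3 were lost in 10 of 15 alternatives for Nr1d2, 10 for Bhlhe40 and 9 for Bhlhe41. In kidney 0 of 18 were called, with slopes of 0.74 for Nfil3 (adjusted p = 0.168) and -0.25 for Tef (adjusted p = 0.339).

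Of 16 genes driven by the clock in liver or kidney, 14 were tested in each tissue and 0 passed between 7c and vehicle. The smallest unadjusted p were 0.0117 for Alas1, the first enzyme of heme synthesis, and 0.0176 for the cell cycle kinase Wee1 in liver, and 0.0332 for the deadenylase Noct and 0.0479 for Alas1 in kidney. With Bmal1 in liver, 4 of 14 were called, beside 0.293% of all genes. The phosphatidate phosphatase Lpin1 fell by 0.94 per doubling (SE 0.101, adjusted p = 0.00303 in edgeR's quasi-likelihood test), the deubiquitinase Usp2 by 1.05 (adjusted p = 0.0205) and the liver glycogen synthase Gys2 by 0.38 (adjusted p = 0.0267), while the fatty acid elongase Elovl3 rose by 0.80 (SE 0.0941, adjusted p = 0.00313). The slope of Usp2 turned to 1.90 (SE 1.36) without library numbers 8 to 10, and its call was also lost without 7c replicate 2 or 6. The call of Gys2 was lost in 5 of 15 alternatives. In kidney 0 of 14 were called, with slopes of -0.20 for Usp2 and -0.10 for Por. Lpin1, Nfil3 and Tef had the smallest p in liver among all genes outside the 10 members. In kidney these were Ypel2 (0.46 per doubling of Bmal1), Rhobtb1 (0.37) and the nuclear receptor gene Ppard (0.63), all 3 rising with Bmal1 (adjusted p = 0.00595, 0.0109 and 0.0151), of which Ppard lost its call in 6 of 15 alternatives and Rhobtb1 in 4.

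Genes that respond to glucocorticoid or cAMP, signals that can induce Per1 and Per2, were examined as a list of 7. None passed between 7c and vehicle in liver, where Fkbp5, a glucocorticoid target, had a log2 fold change of 0.45 and Sik1, a cAMP target, of -0.90 (unadjusted p = 0.0212 and 0.0457). In kidney none passed either, with Tsc22d3 at 0.52 and Crem at 0.19 (unadjusted p = 0.0564 and 0.299). None was called with Bmal1 in liver (Crem 0.29, Tsc22d3 -0.28) or kidney (Zbtb16 0.91, Fkbp5 0.24).

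The members were then compared between liver and kidney in the vehicle mice. Of the 10, 4 were higher in liver, beside 24.7% of all tested genes, and 3 higher in kidney, beside 28.2%. In all 7 of 10 were called, beside 52.8% of all genes. Cry1 differed most, 11.4-fold higher in liver (log2 3.51, SE 0.264, adjusted p = 6.6e-07 in edgeR's quasi-likelihood test). Bmal1 was 3.17-fold (log2 1.66, SE 0.254), Clock 2.41-fold (1.27, SE 0.140) and Per2 1.73-fold higher in liver (0.79, SE 0.294, adjusted p = 0.0407). Dbp was 3.64-fold (log2 -1.87, SE 0.284), Per3 2.75-fold (-1.46, SE 0.300) and Npas2 1.95-fold higher in kidney (-0.96, SE 0.310, adjusted p = 0.0217). Per1, Nr1d1 and Ciart did not pass, at log2 differences of -1.0, 0.34 and -1.16. Per1 passed, however, in 5 of 8 alternatives (lowest adjusted p = 0.00823), and Nr1d1 and Ciart in 1 each. With 1 replicate left out, the differences ran from 0.11 to 0.59 for Nr1d1 and from -2.14 to -0.78 for Ciart. The call of Per2 was lost without any single one of the 4 replicates and with size factors by relative log expression, and that of Npas2 without replicate 1 or 4.

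Among 7c mice 3 of 10 members were called, beside 64.8% of all genes. All 3 were higher in liver, beside 31% of all genes, and 0 were higher in kidney, beside 33.8%. Cry1 was 8.90-fold (log2 3.15, SE 0.433), Clock 2.09-fold (1.06, SE 0.208) and Per2 1.97-fold higher (0.98, SE 0.288). Bmal1 had a log2 difference of 1.40 (SE 0.635, adjusted p = 0.0654 in edgeR's quasi-likelihood test). Dbp and Per3, which were called in vehicle mice, had differences of -0.46 (SE 1.02) and -0.12 (SE 0.671) with wide errors. With the replicate number as a block, a number that the labels do not tie to a mouse, 6 members were called, among them Bmal1 at 1.75 (adjusted p = 0.000215 in edgeR's quasi-likelihood test) and, higher in kidney, Dbp at -1.52 (adjusted p = 0.0101) and Per1 at -1.04 (adjusted p = 0.0232). The unblocked values of Dbp and Per3 were not separated from those of vehicle mice by the interaction test above.

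The other lists were compared between the tissues in the same way, beside the 52.8% of all genes called in vehicle mice and the 64.8% in 7c mice. Of 18 further clock genes, 5 were higher and 5 lower in liver in vehicle mice, with Nfil3 at a log2 difference of 3.19 and Rora at 1.35, and 5 were higher and 4 lower in 7c mice. Of 15 tested clock-driven genes, 6 were higher and 6 lower in liver in vehicle mice, with Elovl3 at 11.68 and Usp2 at -5.06, and 7 and 6 in 7c mice. Of the 7 inducer genes, 4 were higher and 1 lower in liver in vehicle mice, with Tsc22d3 at 2.66 and Fkbp5 at -2.17, and 3 and 3 in 7c mice. In the interaction of treatment and tissue 0 of 17, 13 and 7 tested genes of these lists passed, the smallest unadjusted p being 0.0287 for Bmal2, 0.0278 for Lpin1 and 0.0547 for Sik1.

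**Figure D5:**
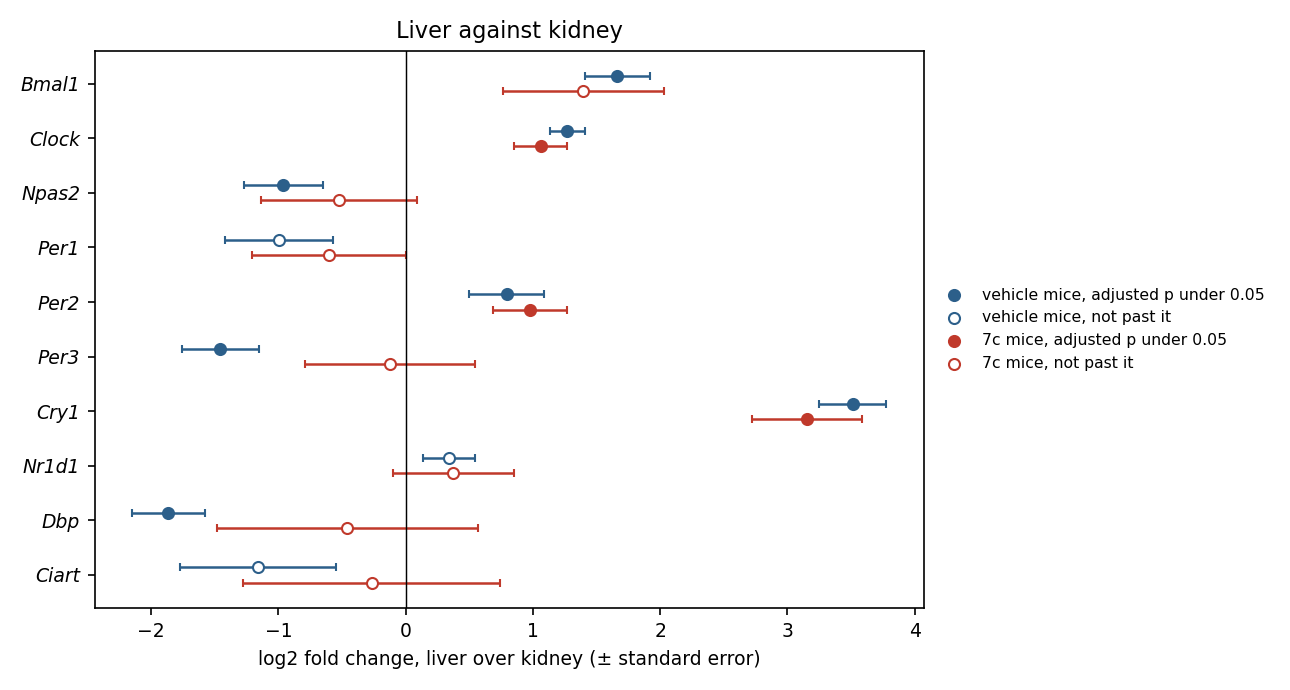
Log2 fold change of liver over kidney for each clock gene (horizontal axis, bars are standard errors) in vehicle mice (blue, 4 per tissue) and 7c mice (red, 6 per tissue), where filled circles have an adjusted p under 0.05. Cry1 lies farthest to the right in both sets, at 3.51 and 3.15, and the bars of Dbp, Ciart and Per3 are wider in 7c mice.

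Levels between genes were compared per length, as RPKM, with no test. For these the counts were scaled by TMM over all 20 libraries, not within each tissue as for the CPM above, and divided by the exon length in kilobases, so that RPKM and CPM are not in one ratio across the tissues. Nr1d1 was the highest member in all 4 groups, at 33.2 RPKM ± 8.72 (SD, n = 4) in vehicle liver and 26.2 ± 3.80 (SD, n = 4) in vehicle kidney. In vehicle liver it was followed by Cry1 (4.21 RPKM), Clock (3.34), Per2 (3.28) and Bmal1 (3.13), which did not differ from each other as neighbours beyond their spread. Then came Dbp (1.58), Npas2 (1.53), Per1 (1.01), Per3 (0.397) and Ciart (0.224). Of these last neighbours Bmal1 stood above Dbp, and Per1 only just above Per3, by more than the larger SD. In vehicle kidney Dbp came second (5.74 RPKM ± 2.15 SD, n = 4) and Npas2 next (2.99), each above its lower neighbour beyond the spread, followed by Per1 (2.01), Per2 (1.89), Clock (1.38), Per3 (1.09) and Bmal1 (0.990), which did not differ from each other as neighbours beyond their spread. Bmal1 stood above Ciart (0.50) by more than the larger SD, and Cry1 (0.367) closed the kidney order. In 7c mice Dbp came second in both tissues, at 10.1 RPKM ± 13.3 (SD, n = 6) in liver and 13.9 ± 12.4 (SD, n = 6) in kidney. The liver mean of Dbp was 5.34 RPKM without 7c replicate 6, and that of Ciart fell from 1.06 to 0.288 RPKM. In the full 7c group no neighbours in the order differed by more than their SD. The length of the longest transcript in place of all exons raised Bmal1 from 3.13 to 7.76 RPKM in vehicle liver, to the second place. Genes on the opposite strand overlap all members but Cry1, among them Thra at Nr1d1 and Sphk2 at Dbp, and the strand setting of the counting is not stated, so that antisense reads cannot be told apart there.

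Finally, the genes most like Bmal1 and Dbp were sought among 14163 genes by the lower of the Pearson correlations over 10 livers and over 10 kidneys, as a description. For Bmal1 these were Clpx (0.902), Nfil3 (0.865), Mapre1 (0.844), Pnrc1 (0.839) and Dtx4 (0.837). Within the 10 members, Npas2 (0.892) and Cry1 (0.850) came as close to Bmal1. Dbp ran opposite to Bmal1, with correlations of -0.896 in liver and -0.973 in kidney. Per3 did so more strongly in liver, at -0.966, and less strongly in kidney, at -0.812. For Dbp they were Tef (0.902), Bhlhe41 (0.890), Gjb2 (0.878), Tns2 (0.841) and B3gnt8 (0.789), and within the members Nr1d1 (0.905) and Per3 (0.853) lay nearest. The points of each correlation share their libraries, and those of the kidney their separate sets by Bmal1.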

How the data were processed

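RNA-seq libraries (TruSeq stranded, polyadenylated RNA) of 10 livers and 10 kidneys were analysed. Per the labels and the submitters' processing notes, reads were aligned to GRCm39 with STAR 2.7.11b and counted with featureCounts 2.0.6, and the authors deposited raw counts of 57010 genes. The annotation release, the strand setting and the handling of multi-mapping reads are not given in the sources used here. Symbols and positions came from GENCODE vM39 (56310 genes matched). Genes that reached 10 counts in 50% or more of the libraries of a tissue were tested with edgeR 4.0.16 (R 4.3.3), with TMM scaling, quasi-likelihood F-tests, Benjamini-Hochberg adjustment over all tested genes and a threshold of 0.05, the filter and the one-way model being those of the study's methods. Genes tested between tissues passed in either tissue, and those in the interaction in both. The slope on Bmal1 used its centred log2 CPM (prior count 2) with treatment in the model. CPM used TMM within a tissue, and RPKM used TMM over all 20 libraries and exon-union lengths. Motifs were searched in GRCm39 sequence. Permutation tests were two-sided. The fits were tested on simulated data.

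The members and lists were chosen with earlier results of these data known. The text names all 10 members, of each other list up to 5 called genes per comparison or else the 2 of smallest p, the 3 non-members of smallest p on Bmal1, and the 5 genes most like Bmal1 and like Dbp. Alternatives were RLE size factors, DESeq2 1.42.0, edgeR's likelihood ratio test, limma-voom from limma 3.58.1, no filter, a replicate block, no treatment term, and each mouse left out. The fits on library number and without numbers 8 to 10 were added after the data were seen. No 2 libraries of a tissue agreed within sampling noise. Labels call the samples biological replicates. The values of 1 listed gene are not reported here.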

Additional observations from a re-analysis of the deposited data

Results flagged for a closer look

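Cry1 in vehicle liver replicate 4, at 10.6 CPM, lay far below the other 3 vehicle livers, at 18.4 to 19.6 CPM. Its gap to the nearest of them was 0.893 of the whole range of log2 CPM, above Dixon's critical value of 0.829 for 4 samples. It was 1 of 40 groups of a member, tissue and treatment, and chance flags about 1 in 20. Leaving this mouse out changed the difference of Cry1 between liver and kidney from 3.51 to 3.57.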

How the results depend on the processing

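Under every alternative run, 0 members were called between 7c and vehicle in either tissue and 0 in the interaction. The counts of called genes moved. Between 7c and vehicle in liver, 1 gene was called by the main test, 6 by DESeq2, 7 by the likelihood ratio test, 4 without a filter and 0 to 2 with a mouse left out. In kidney these counts were 0, 18, 14, 3 and 0 to 3, and limma-voom called 2. For the interaction, 1 gene was called, 16 by DESeq2, 11 without a filter and 0 to 6 with a mouse left out. For Bmal1 in liver, 44 genes were called, 204 by DESeq2, 199 without a filter, 12 to 36 with a mouse left out (1 to 5 members) and 0 without library numbers 8 to 10 (0 members). For Bmal1 in kidney, 7 were called, 67 by DESeq2 (6 members), 18 without a filter, 4 to 14 with a mouse left out and 0 without numbers 8 to 10 (0 members). For the library number, 13 genes were called in liver and 0 to 22 with a mouse left out (0 to 3 members), and 0 in kidney and 0 to 5 with a mouse left out (0 to 3 members). The fits without numbers 8 to 10 hold 7 mice and a narrower range of Bmal1.

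Some signs turned, mostly of effects that were not called, with Tef and Usp2 on Bmal1 in liver as called exceptions. Between 7c and vehicle, limma-voom gave -0.30 for Npas2 in liver and -0.045 for Cry1 in kidney. With a mouse left out, the liver values ran from -0.37 to 0.38 for Npas2 and from -0.31 to 0.21 for Nr1d1, and the kidney values from -0.35 to 0.23 for Bmal1, -0.14 to 0.079 for Nr1d1, -0.15 to 0.19 for Cry1, -0.060 to 0.37 for Per2 and -0.13 to 0.69 for Per3. The interaction ran from -0.0087 to 0.35 for Per2 and from -0.24 to 0.16 for Nr1d1, and the tissue difference in 7c mice from -0.44 to 0.045 for Per3 and from -1.81 to 0.091 for Ciart. Without numbers 8 to 10, the slope on Bmal1 was -0.50 for Clock, 1.60 for Per1, 0.47 for Tef and 1.90 for Usp2 in liver, and 1.11 for Per1, 0.61 for Per2 and 0.30 for Usp2 in kidney. The cause was not tested.

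Replicate numbers of 7c and vehicle did not pair the mice: the correlation of deviations exceeded 0.1 for 0 of 4 numbers in liver and 1 of 4 in kidney. With the number as a replicate block, 0 genes were called in liver and 0 in the interaction. The block drops 7c replicates 5 and 6, which have no vehicle of their number. The liver values that turned in sign became 0.047 for Bmal1, -0.30 for Per3, -1.04 for Dbp and -0.98 for Ciart. The kidney values that did so became 0.23 for Bmal1, 0.0043 for Npas2, -0.12 for Per2, -0.30 for Per3, -0.35 for Dbp and -0.37 for Ciart. Over all alternatives the lowest liver values were -1.18 for Nr1d1 and 0.0035 for Per1, beside -0.02 and 1.14 in the main fit. Liver and kidney of the same number correlated over 0.1 in 7 of 10 pairs, and 8 of 10 samples correlated best with their own number, a hint from the data and not from the design. For this reason the association of kidney genes with liver Bmal1 and of liver with kidney levels is not given. With that block, the interaction of Nr1d1 was -0.39, its tissue difference in 7c mice -0.047, and 6 members were called between liver and kidney in 7c mice. Of 280 levels per length under the alternatives, 15 moved by more than the SD. Low counts limit Ciart in liver, which could not be tested without some mice.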
